A study of Homo sapiens with 6 samples.

Results

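The 10 genes described here derive from the gag gene of retrotransposons: RTL8A, RTL8B, RTL8C, RTL5, RTL6, RTL10, PEG10, PNMA1, PNMA2 and PNMA8A. They were taken by symbol from the 60649 gene rows of an RNA-seq count table, and each matched 1 row. RTL8B was chosen by its measured counts in these same libraries, which were higher with METTL3, so its values in that comparison are a description without a test. The others were listed by name as relatives, with earlier results known. The libraries came from OVCAR5, an established epithelial cell line from human ovarian cancer. In the METTL3 group (3 libraries) the cells carried a stably integrated METTL3 lentivirus, and in the vector group (3 libraries) the empty lentivirus, both under puromycin selection and with no other agent named. The labels do not say whether libraries of a group came from separate cultures, so the tests measure the spread between libraries, which may be technical. Part of the label text calls the controls parental, whereas the treatment text gives them the empty vector, and the promoter of the transgene is not given in the sources used here.

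Retrotransposons of the Ty3 (gypsy) type carry a gag gene, whose protein builds the particle around the element's RNA, and a pol gene for its enzymes. Mammals have kept several gag genes as host genes after the elements themselves decayed. PEG10 is expressed from the paternal copy, is needed for placental development in mice, makes a gag-pol fusion by ribosomal frameshifting and can form virus-like particles. The RTL8 genes are small relatives on the X chromosome, and the PNMA genes encode the paraneoplastic Ma antigens, of which PNMA2 also forms capsids. METTL3 is the catalytic subunit of the complex that writes m6A on mRNA.

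The RTL8 genes are so alike that their reads may not all be told apart, and RTL8A and RTL8B, the pair with the highest coding identity, are shown first for that reason. In GENCODE 44 on hg38, RTL8B (ENSG00000212747.5, chrX:135020513-135022542) and RTL8A (ENSG00000203950.7, chrX:135050932-135052196) lie on the reverse strand and RTL8C (ENSG00000134590.14, chrX:135032355-135033546) between them on the forward strand, each with its exons in 1 block. Each coding sequence has 342 bases with the stop codon. RTL8A and RTL8B were identical at 330 positions (96.5%), RTL8A and RTL8C at 326 (95.3%) and RTL8B and RTL8C at 323 (94.4%). Coding bases 1 to 300 hold 22 of the 23 positions where the 3 genes are not all the same, marked by capitals in the pair shown. They were read 5′ to 3′ from hg38, at chrX:135051809-135052108 (reverse strand) for RTL8A and chrX:135022160-135022459 (reverse strand) for RTL8B.
RTL8A: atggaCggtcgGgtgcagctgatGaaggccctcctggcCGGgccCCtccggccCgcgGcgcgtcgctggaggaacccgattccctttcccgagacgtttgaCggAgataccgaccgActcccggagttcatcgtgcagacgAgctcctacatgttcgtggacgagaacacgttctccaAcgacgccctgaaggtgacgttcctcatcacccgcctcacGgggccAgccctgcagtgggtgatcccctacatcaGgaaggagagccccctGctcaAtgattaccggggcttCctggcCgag
RTL8B: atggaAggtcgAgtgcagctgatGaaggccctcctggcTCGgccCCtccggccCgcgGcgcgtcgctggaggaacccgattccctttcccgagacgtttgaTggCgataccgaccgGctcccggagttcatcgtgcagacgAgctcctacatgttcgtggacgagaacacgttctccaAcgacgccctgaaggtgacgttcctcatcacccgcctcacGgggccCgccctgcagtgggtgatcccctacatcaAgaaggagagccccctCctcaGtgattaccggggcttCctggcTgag

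RTL8B had a base of its own at 7 of the 23 positions, RTL8C at 11 and RTL8A at 4, and all 3 genes differed at 1. Counted from the A of the start codon, with the RTL8A base first, the changes carried by RTL8B alone were C6A, G12A, C39T, C102T, A117G, A275G and C297T. At the position where all differed, RTL8B carried G40C. Of the 23 positions, 15 were the third base of a codon. The longest coding run without a difference was 107 bases between RTL8A and RTL8B, 55 between RTL8B and RTL8C and 46 between RTL8A and RTL8C. The likeness was lower at the starts of the genes. Promoters, taken as 250 bases before to 50 after the start, were 61.2% identical between RTL8A and RTL8B, 44.6% between RTL8A and RTL8C and 46.6% between RTL8B and RTL8C.

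Whole transcripts were easier to separate than coding sequences when 2 mismatches were allowed. Exact copies went the other way in RTL8C. There 2.05% of the 50-base windows inside the coding sequence matched another RTL8 gene exactly, and 10.5% of those after it. Of 1981 windows of 50 bases in RTL8B, 184 (9.29%) had an exact copy elsewhere in hg38, with 108 of them in RTL8A and 83 in RTL8C. The shares were 9.87% in RTL8A and 8.31% in RTL8C, and with 150 bases no window of any of the 10 genes had an exact copy. Allowing 2 mismatches, 25.5% of the 50-base windows of RTL8B matched RTL8A or RTL8C, and 1.97% of its 150-base windows did. Both lengths are given because single-end reads of 50 bases are described in the paper and paired reads of 150 in the series' design text. How the counting treated reads that fit several genes is not given in the sources used here.

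**Figure D1:**
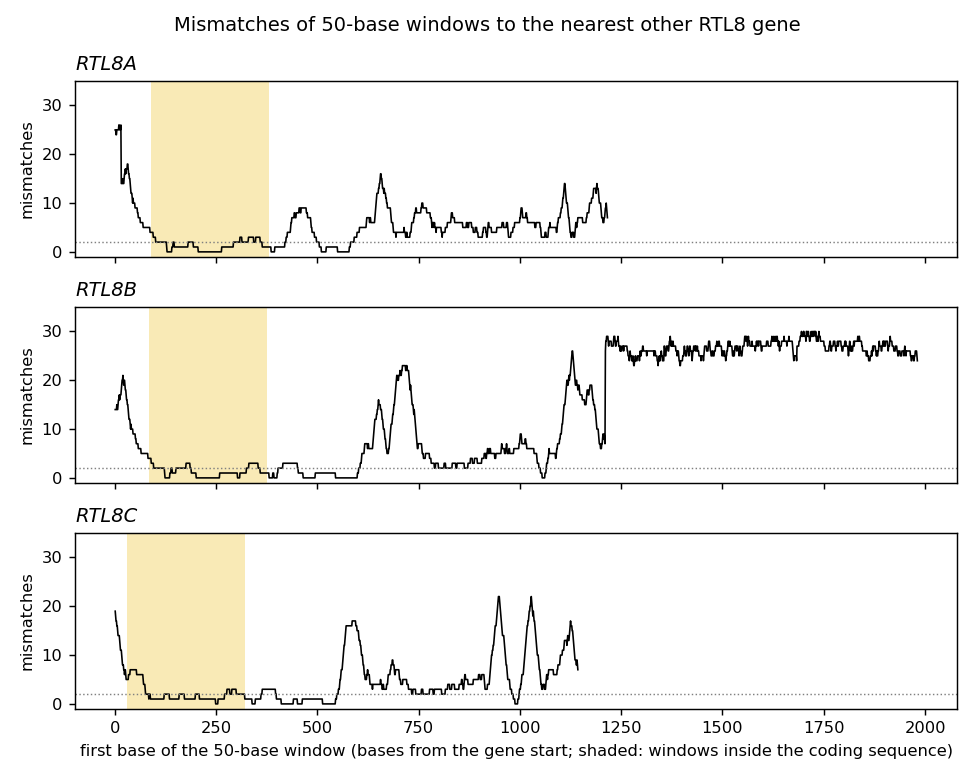
Mismatches between each 50-base window of an RTL8 gene and its closest match in the other RTL8 genes (y axis), by the first base of the window from the gene's start (x axis, bases), with windows inside the coding sequence shaded and a dotted line at 2 mismatches. Coding windows lie near 0, and the last 820 bases of RTL8B have no window with fewer than 23 mismatches.

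The profile of window mismatches showed where RTL8B differs most from the other RTL8 genes. Inside the coding sequence 84.6% of its 50-base windows lay within 2 mismatches of another RTL8 gene, and after the coding sequence 14.1% did. From base 1211 to base 2030 RTL8B had no counterpart, and the 771 windows there (38.9% of all) differed from the other RTL8 genes at 23 to 30 positions. Some windows before that stretch did too, such as those starting at bases 710 and 717, with 23 mismatches each. The deposited counts are sums per gene and do not show where reads fell. Outside the RTL8 genes, windows of 50 bases with an exact copy elsewhere made up 3.45% in PNMA2, 1.66% in RTL10, 1.01% in PNMA8A and 0.0564% in RTL6, and RTL5, PEG10 and PNMA1 had none. Reads on shared exon bases are uncertain for RTL10 (6.67% with GNB1L on the same strand), PEG10 (3.27% opposite SGCE) and PNMA2 (7.05% opposite BNIP3L and DPYSL2).

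The libraries held 96633925 to 125463386 counts. Levels are given as CPM, counts scaled by library size and a TMM factor. METTL3 itself measured 152, 165 and 175 CPM in METTL3 libraries 1 to 3 against 80.6, 68.6 and 71.6 CPM in vector libraries 1 to 3, as labelled. The 5 epithelial markers were above 1 CPM in every library and summed to 5590 to 8830 CPM, while leukocyte markers summed to at most 0.168 CPM and endothelial ones to at most 0.745 CPM. Fibroblast markers summed to 9.07 to 20.1 CPM, mostly COL1A1. Among the 9 tested members, vector library 1 was the lowest of the 6 libraries for 7. METTL3 library 1 stood well off from METTL3 libraries 2 and 3 for RTL8B only, at 1.7 times their mean. Values without library 1 are given where it moves a result.

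Per kilobase of exon, PEG10 was the most abundant member, at 64.9 ± 15.6 CPM per kb (mean ± SD over the 6 libraries). RTL8C (34.4 ± 6.24), PNMA1 (26.9 ± 4.41) and RTL8A (25.2 ± 3.18) followed, then RTL6 (7.04 ± 1.21) and RTL10 (6.7 ± 1.25). PNMA2 (1.71 ± 0.347), RTL8B (0.967 ± 0.492) and RTL5 (0.631 ± 0.186) were the lowest of those detected, all on the same per-length scale. Neighbours in this order overlapped between libraries except at the steps from RTL8A to RTL6, from RTL10 to PNMA2 and from RTL5 to PNMA8A. RTL8B was therefore scarce beside its near-identical paralogs. PNMA8A (ENSG00000182013.18, chr19:46466491-46471563), a PNMA relative, had 1 count in vector library 1 and 0 in the other 5, where a count of 0 allows up to 0.0242 to 0.0297 CPM (3 counts, counting error only), so it was not detectable at this depth. The other 9 members passed the filter on low counts and were tested among 22038 genes.

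RTL8B had 414, 256 and 226 counts in METTL3 libraries 1, 2 and 3 and 177, 111 and 105 in vector libraries 1, 2 and 3. In CPM these were 3.67, 2.07 and 2.24 against 1.87, 0.982 and 0.95. Library 1 was the highest of each group, and the vector library 1 came near the lower METTL3 libraries without reaching them. Group means were 2.66 ± 0.88 CPM for METTL3 and 1.27 ± 0.52 CPM for vector (SD over 3 libraries). The fitted log2 fold change was 1.07 ± 0.341 (standard error), or 2.1-fold.

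Within each replicate number, METTL3 over vector for RTL8B was 1.97 for number 1, 2.1 for number 2 and 2.36 for number 3. The numbers were paired on the values. Deviations of METTL3 library 2 from its group mean correlated more with vector library 3 (r 0.205) than with vector library 2 (r 0.12). The values therefore do not settle how libraries 2 and 3 pair. RTL8B was chosen for its rise in these libraries, so these ratios and the fits that follow describe that rise and do not check it. Without library 1 of either group the log2 fold change was 1.15 ± 0.185, and with the replicate number as a block 1.09 ± 0.173. Omitting 1 library at a time gave 0.79 (without METTL3 library 1) to 1.46 (without vector library 1). Over all tested genes, 1.37% had a fitted rise of 2-fold or more and 0.163% were at least 2-fold higher within every number, which RTL8B missed in number 1.

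**Figure D2:**
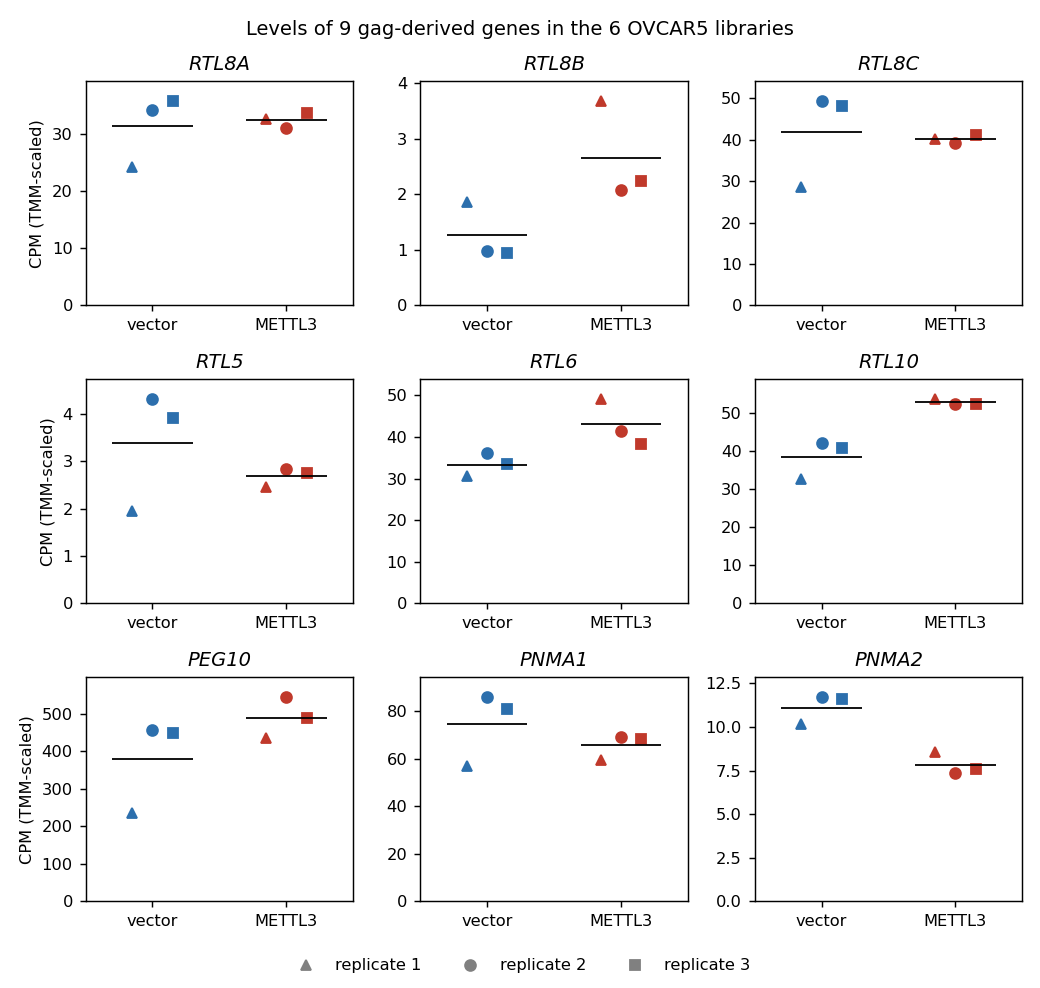
CPM (TMM-scaled, y axes from 0) of the 9 tested genes in the vector (blue) and METTL3 (red) libraries, with a symbol for each replicate number and a line at the mean of 3 libraries. RTL8B lies at 2.07 to 3.67 CPM with METTL3 and 0.95 to 1.87 CPM without it, and vector library 1 (blue triangle) is the lowest for 7 of the 9 genes.

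RTL8A and RTL8C showed no such separation. RTL8A measured 32.6, 31.0 and 33.6 CPM in METTL3 libraries 1 to 3 against 24.2, 34.1 and 35.6 CPM in vector libraries 1 to 3, so all METTL3 values fell inside the vector range. Its log2 fold change was 0.05 ± 0.157 (SE) and the adjusted p 0.943 by edgeR. RTL8C measured 40.1, 39.1 and 41.0 CPM against 28.5, 49.2 and 48.0 CPM, again with the METTL3 values between vector library 1 and the others, and its log2 fold change was -0.07 ± 0.198 (SE) and the adjusted p 0.938 by edgeR. Both directions rested on single libraries. RTL8A was at -0.11 without vector library 1, and RTL8C was at 0.09 without vector library 2 and 0.06 without vector library 3.

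Without library 1 of either group, RTL8C fell by 0.28 on the log2 scale with METTL3 (adjusted p = 0.00381 by edgeR), and RTL8A had a log2 fold change of -0.11 (adjusted p = 0.298). Within number 1, METTL3 over vector was 1.34 for RTL8A and 1.4 for RTL8C. RTL8B was not tested against its paralogs, since it was chosen for its own change.

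The composition of the RTL8 counts does not depend on library scaling. RTL8B made up 4.81% (95% Wilson interval 4.38 to 5.28) of the summed RTL8 counts in METTL3 library 1, 2.86% (95% Wilson interval 2.53 to 3.22) in library 2 and 2.91% (95% Wilson interval 2.56 to 3.31) in library 3. In the vector libraries it made up 3.42% (95% Wilson interval 2.95 to 3.94), 1.16% (95% Wilson interval 0.968 to 1.4) and 1.12% (95% Wilson interval 0.929 to 1.36). Vector library 1 thus had a larger RTL8B share than METTL3 libraries 2 and 3, and the groups overlapped. Mean shares were 3.53 ± 1.11% for METTL3 and 1.9 ± 1.31% for vector (SD over 3 libraries). The intervals cover counting error only and treat every count as independent. Between 67.6% and 70.5% of counts from 1 to 20 were even, so the intervals may be too narrow.

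The ratio of the abundant paralogs, RTL8A and RTL8C, was also read from the counts. RTL8A counts per RTL8C count were 0.813, 0.793 and 0.819 in METTL3 libraries 1 to 3 and 0.85, 0.693 and 0.742 in vector libraries 1 to 3. Their summed level was 72.6, 70.2 and 74.6 CPM against 52.8, 83.4 and 83.6 CPM, higher with METTL3 in number 1 and lower in numbers 2 and 3, while RTL8B was higher in all 3. The part of shared reads in the RTL8B counts was not tested.

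**Figure D3:**
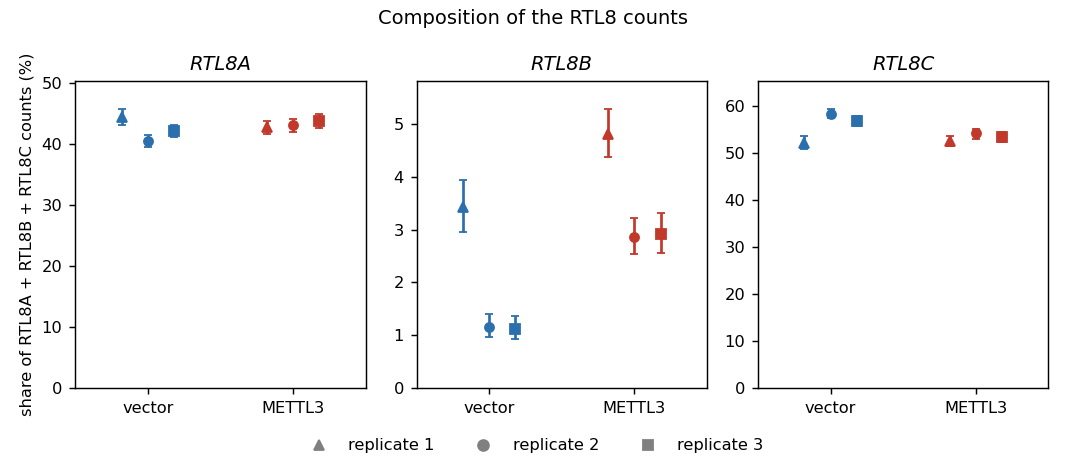
Share of RTL8A, RTL8B and RTL8C in the summed counts of the 3 genes (y axes in percent, from 0) in each vector (blue) and METTL3 (red) library, with 95% Wilson intervals. In libraries 2 and 3 the RTL8B share is 1.16% and 1.12% for vector and 2.86% and 2.91% for METTL3, and in library 1 it is 3.42% and 4.81%.

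On all 6 libraries edgeR called 0 of the 8 tested members other than RTL8B, and 0 of all genes (0.0%). METTL3 itself was among the genes not called (adjusted p 0.072), so the absence of calls says little about the members. At an unadjusted p-value under 0.05 there were 1830 genes (8.3%), or 2480 (11.3%) with the replicate block. Of the 8 members, RTL10 (unadjusted p = 0.00608 by edgeR), PNMA2 (0.00627) and RTL6 (0.0232) were among the 1830. None of these 8 members was called by DESeq2 (background 1.28%, or 2.41% with the block), by edgeR without a filter on low counts (1.3%) or by edgeR without vector library 1 (1.62%). Of the 8, 4 were higher and 4 lower, with a median log2 fold change of -0.01 against -0.02 over all genes. No overlap between groups was seen for 2 of the 8 with METTL3 higher (background 8.47%) and for 1 with METTL3 lower (background 8.93%, or 17.4% in either direction).

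The members whose METTL3 libraries lay above every vector library, besides RTL8B, were RTL10 and RTL6. RTL10 (ENSG00000215012.9, chr22:19846138-19854896, reverse strand) encodes a mitochondrial protein with a BH3-like motif, and measured 53.5, 52.4 and 52.3 CPM in METTL3 libraries 1 to 3 against 32.5, 42.0 and 40.7 CPM in vector libraries 1 to 3. Its METTL3 values were close together and vector library 1 was the lowest, with a log2 fold change of 0.46 ± 0.126 (SE) and the adjusted p 0.438 by edgeR. RTL6 (ENSG00000188636.4, chr22:44492583-44498233, reverse strand) is known from mouse microglia and measured 49.0, 41.5 and 38.4 CPM against 30.5, 36.2 and 33.4 CPM. The RTL6 groups came close in METTL3 library 3 and vector library 2, with a log2 fold change of 0.37 ± 0.132 (SE) and the adjusted p 0.561 by edgeR.

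PEG10 (ENSG00000242265.6, chr7:94656325-94669695, forward strand) measured 436, 543 and 487 CPM in METTL3 libraries 1 to 3 against 236, 457 and 448 CPM in vector libraries 1 to 3. The groups overlapped, since METTL3 library 1 lay below vector libraries 2 and 3, and vector library 1 stood far below all others. The log2 fold change was 0.36 ± 0.241 (SE) and the adjusted p 0.672 by edgeR, and 0.11 without vector library 1. RTL5 (ENSG00000242732.4, chrX:72127110-72131915, reverse strand), also studied in mouse microglia, measured 2.45, 2.84 and 2.75 CPM against 1.95, 4.3 and 3.9 CPM, with its lowest value in vector library 1 and its highest in vector library 2. Its log2 fold change was -0.34 ± 0.288 (SE) and the adjusted p 0.739 by edgeR, and without vector library 1 it was -0.61.

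The detected PNMA genes had negative estimates. PNMA2 (ENSG00000240694.9) was the one member with every METTL3 library below every vector library, at 8.54, 7.38 and 7.6 CPM against 10.2, 11.7 and 11.6 CPM. Its log2 fold change was -0.51 ± 0.141 (SE) and the adjusted p 0.438 by edgeR, and from -0.57 to -0.45 when 1 library was omitted. PNMA1 (ENSG00000176903.5, chr14:73711783-73714384, reverse strand) measured 59.2, 69.0 and 68.2 CPM against 56.8, 85.7 and 80.7 CPM, and its groups overlapped through vector library 1. Its log2 fold change was -0.18 ± 0.165 (SE) and the adjusted p 0.75 by edgeR.

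Vector library 1 was the lowest of the 6 for 7 of the 9 tested members (RTL8A, RTL8C, RTL5, RTL6, RTL10, PEG10 and PNMA1), as for 24.7% of all genes, a count made after the values were seen. Relative to the mean of vector libraries 2 and 3, it stood at 0.476 for RTL5, 0.521 for PEG10, 0.587 for RTL8C and 0.696 for RTL8A, but at 1.93 for RTL8B. METTL3 library 1 stood at 1.7 times the mean of METTL3 libraries 2 and 3 for RTL8B, and between 0.846 (PEG10) and 1.23 (RTL6) for the other 8. Library 1 was thus high for RTL8B in both groups.

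Within the replicate numbers, and leaving RTL8B aside, RTL6, RTL10 and PEG10 were higher with METTL3 in all 3 and PNMA2 was lower in all 3, where 39.6% of all genes kept 1 direction. RTL8A, RTL8C, RTL5 and PNMA1 were higher with METTL3 in number 1 and lower in numbers 2 and 3, and such a split of number 1 was seen for 29.8% of all genes. An edgeR test of the replicate number itself called none of the tested members, against 0.0318% of all genes. At an unadjusted p-value under 0.05 it gave RTL8B alone among the members, against 13.1% of all genes, and DESeq2 called none of the members and 1119 of the 22038 genes. Leaving out any 1 library left its number with a single library, so such a fit does not test the number.

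With libraries 2 and 3 of each group alone, edgeR called 6 of the 8 tested members other than RTL8B, against 15.2% of all genes. RTL10 (log2 fold change 0.34, adjusted p = 0.000797) and PEG10 (0.19, adjusted p = 0.0455) rose, against 6.66% of all genes by edgeR. PNMA2 (-0.64, adjusted p = 0.000148), RTL5 (-0.55, adjusted p = 0.00949), PNMA1 (-0.28, adjusted p = 0.00294) and RTL8C fell, against 8.59% by edgeR. RTL6 had a log2 fold change of 0.2 (adjusted p = 0.0564) there and RTL8A was not called either. These calls rest on 2 libraries a group.

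**Figure D4:**
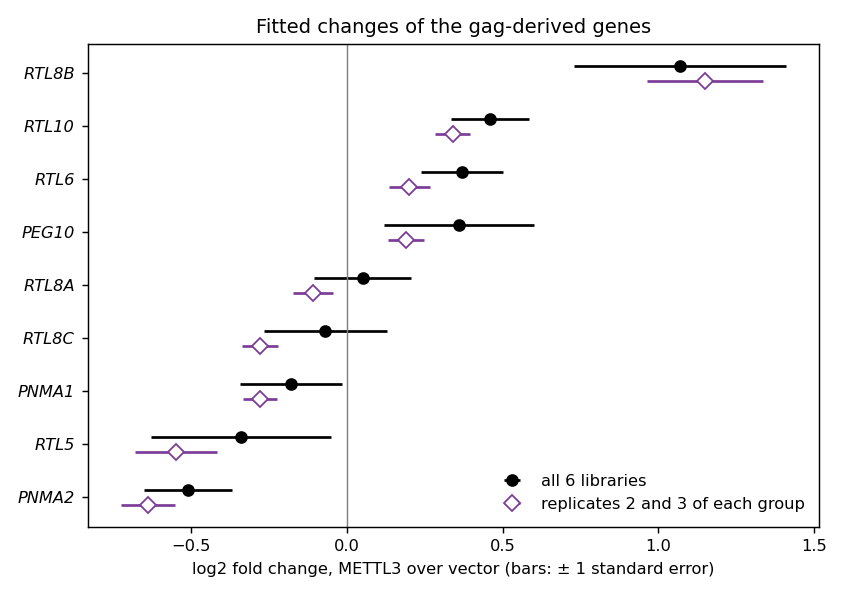
Log2 fold change of METTL3 over vector (x axis, bars of 1 standard error) for the 9 tested genes, fitted by edgeR on all 6 libraries (filled circles) and on libraries 2 and 3 of each group (open diamonds). RTL8B stands at 1.07 and 1.15, and the other genes lie between -0.64 and 0.46.

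Beyond the members, 18 other gag-derived genes were looked up, of which 5 passed the filter on low counts and 0 were called on all 6 libraries, with a median log2 fold change of -0.09 (-0.02 over all genes). MOAP1, a PNMA relative that binds BAX, was at 36.0 ± 2.98 CPM for METTL3 and 33.2 ± 2.76 CPM for vector (SD over 3 libraries). ARC, the neuronal gene whose capsids carry RNA between cells, measured 4.31, 5.52 and 4.87 CPM in METTL3 libraries 1 to 3 against 4.58, 9.54 and 9.97 CPM in vector libraries 1 to 3. Vector library 1 again lay among the METTL3 values, and the log2 fold change was -0.71 ± 0.286 (SE) and the adjusted p 0.574 by edgeR. In libraries 2 and 3, where 8.59% of all genes were called lower, ARC was called at -0.91 (adjusted p = 2.73e-05 by edgeR). So was ZCCHC12, which passed the filter there but not on all 6 libraries and is named after its values were seen, at -2.23 (adjusted p = 0.0293 by edgeR) with at most 24 counts in any library. PNMA6A measured 0.621, 1.19 and 1.19 CPM against 1.23, 1.96 and 1.58 CPM without overlap, with a log2 fold change of -0.67 ± 0.309 (SE) and the adjusted p 0.613 by edgeR. RTL9 (0.41 ± 0.478) and CCDC8 (-0.09 ± 0.706) had at most 22 counts in any library.

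Genes next to the RTL8 genes were compared as well. Of 27 annotated genes within 300 kb, 9 were tested and 0 called. Of the 9, 8 had a negative log2 fold change, and the median of the 9 was -0.17 against -0.02 over all genes. Values ran from -0.78 ± 0.484 for SMIM10L2B to 0.03 ± 0.318 for ENSG00000286964, which lies between RTL8C and RTL8A. SMIM10, the closest tested gene on the other side of RTL8B, measured 8.37, 13.0 and 12.9 CPM in METTL3 libraries 1 to 3 against 11.9, 13.5 and 16.0 CPM in vector libraries 1 to 3, with overlap. PLAC1, a placental gene, measured 1.84, 1.61 and 2.07 CPM against 2.46, 2.41 and 2.5 CPM, and MOSPD1 measured 12.8, 15.3 and 15.4 CPM against 17.5, 17.7 and 17.1 CPM. Both lay lower with METTL3 without overlap, as did 8.93% of all genes. Their log2 fold changes were -0.41 (adjusted p = 0.609) and -0.26 (adjusted p = 0.621) by edgeR. In libraries 2 and 3 PABIR3 was the 1 neighbour called, at -0.44 (adjusted p = 0.0454 by edgeR). In that fit 15.2% of all genes were called, 8.59% of them all as lower.

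**Figure D5:**
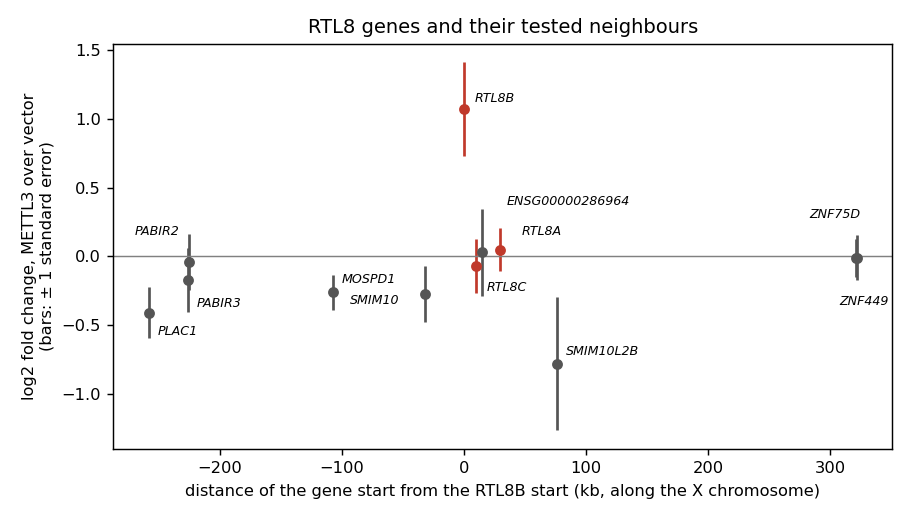
Log2 fold change of METTL3 over vector (y axis, bars of 1 standard error) for the RTL8 genes (red) and the 9 tested neighbours (grey), by distance of the gene start from that of RTL8B (x axis, kb). RTL8B stands at 1.07, and the neighbours lie between -0.78 and 0.03.

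At the PEG10 locus, SGCE is imprinted like PEG10 and starts beside it on the opposite strand. SGCE measured 61.7, 63.1 and 62.2 CPM in METTL3 libraries 1 to 3 against 71.9, 66.8 and 70.7 CPM in vector libraries 1 to 3. Its groups did not overlap, nor did those of CASD1, and 8.93% of all genes lay lower with METTL3 in this way. The log2 fold change of SGCE was -0.16 ± 0.0991 (SE) and the adjusted p 0.654 by edgeR. Vector library 1 held the highest SGCE and the lowest PEG10 value. PPP1R9A, a neuronal scaffold gene, had a log2 fold change of 0.48 (adjusted p = 0.606 by edgeR). It rose in libraries 2 and 3 (0.45, adjusted p = 0.00386 by edgeR), where 6.66% of all genes were called higher. CASD1 (-0.17) and PON2 (-0.19) were called in neither fit. UBQLN2, a ubiquilin that lowers PEG10 protein, was at 39.3 ± 5.54 CPM for METTL3 and 38.1 ± 11.3 CPM for vector (SD over 3 libraries). Log2 fold changes of UBQLN1, UBQLN2, UBQLN4 and UBE3A, the ligase of Angelman syndrome, ran from -0.05 to 0.07, and 0 of the 4 were called in either fit.

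Over the 6 libraries, the genes whose log2 CPM followed RTL8B most closely, among 14683 with a mean of at least 1 CPM, were EPHA1 (Pearson's r 0.997), BLCAP (0.997), LITAF (0.996), ENSG00000275234 (0.995) and LYPD2 (0.995). LITAF, for one, measured 471, 346 and 345 CPM in METTL3 libraries 1 to 3 against 331, 222 and 230 CPM in vector libraries 1 to 3. Like RTL8B, all 5 were highest in METTL3 library 1 and lowest in vector libraries 2 and 3. Such a correlation describes 6 points that share groups and libraries. Among the members, r with RTL8B ran from -0.825 for PNMA1 to 0.689 for RTL6, with -0.278 for RTL8A and -0.491 for RTL8C. RTL8A and RTL8C followed each other (r 0.957), as did RTL5 and PNMA1 (r 0.983) and RTL6 and RTL10 (r 0.887).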

How the data were processed

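Poly(A) RNA of OVCAR5 cells was sequenced in 3 METTL3 and 3 vector libraries. The deposited values are raw read counts per gene, which the authors made by aligning reads to hg38 with hisat2 and counting with Subread, and the submitters' processing notes also name fastp. Versions, the annotation release, the strand setting and the handling of multi-mapping reads are not given in the sources used here. The labels name a stranded TruSeq kit and the paper an NEBNext kit. Between 67.6% and 70.5% of counts from 1 to 20 were even, so counts divided by 2 were also tried.

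GENCODE 44 named 60463 of 60649 rows. Genes passing filterByExpr were fitted with TMM factors in edgeR 4.0.16 (R 4.3.3, robust quasi-likelihood F test, Benjamini-Hochberg adjustment over every gene tested, threshold 0.05), and DESeq2 1.42.0 was an alternative. Standard errors were derived from the fold change and F. The fits were tested on simulated counts. Deviations of same-numbered libraries correlated at 0.334, 0.12 and 0.175, each over 0.1, so the numbers were treated as pairing, on the values and not on the labels. Unequal numbers (METTL3 3 with vector 2 and METTL3 2 with vector 3) also correlated over 0.1, at 0.133 and 0.205. The values thus do not settle the pairing of libraries 2 and 3. Ratios and directions within numbers and the block fits rest on that choice. Windows were searched on both strands of hg38 without alternate contigs, and RTL8 sequences were aligned with Biopython 1.88.

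The genes named are the members, METTL3, tested genes of the lists given in the text, tested genes with an exon within 300 kb of the RTL8 genes and the 5 most like RTL8B. Members and lists were chosen with earlier results of these data known. The sequence of RTL8C is not reported here.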

Additional observations from a re-analysis of the deposited data

How the results depend on the processing

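For METTL3, edgeR called 0 genes on all 6 libraries with TMM, RLE or upper-quartile scaling, a stricter filter, counts divided by 2 or the replicate block, so the block changed no call there. It called 560 without a filter, 3362 with replicates 2 and 3 and 5450 with these and the replicate block, and DESeq2 called 283, or 532 with the block, an alternative chosen after seeing the data. Leaving out 1 library gave 0 to 367 genes, the latter without vector replicate 1, and 0 members. Members called were 0 on all 6 libraries, 1 without a filter and 1 with DESeq2 and the block (RTL8B in both), 7 with replicates 2 and 3 and 8 with these and the block, which added RTL6. RTL8B, chosen on this comparison, is in each of these counts above 0, and nothing is drawn from its calls. RTL8A went from 0.05 to -0.11 with replicates 2 and 3, with or without the block, and ran from -0.11 to 0.17 when 1 library was left out. RTL8C went from -0.07 to a range of -0.28 to 0.09, positive without vector replicate 2 or 3 (0.06). The other 7 tested members kept their direction under all alternatives run, and the cause was not tested. For the replicate number, edgeR called 7 genes, or 1482 without a filter, and DESeq2 1119. Leaving out 1 library gave 554 to 9130 genes (9130 without METTL3 replicate 1, 6730 without vector replicate 1) and 0 to 8 members (8 and 4 in those fits), and 1 member, PEG10, was called without a filter. The mean RTL8B share ran from 2.89% to 3.86% with METTL3 and from 1.14% to 2.29% with the vector when 1 library was left out. Depth limits genes with few counts, such as RTL9, CCDC8 and PNMA8A.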
